A study of Homo sapiens with 6 samples.

Results

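The data compare the RNAs recovered with Argonaute 2 (Ago2-IP) from Hep G2 cells carrying a *miR-195* mimic with those recovered from nontransfected (NT) Hep G2 cells. Hep G2 is a line grown from a human liver tumor. One group received the *miR-195* dsRNA mimic at 5 nM and was collected at 24 hours. The other was not transfected, with a labelled time of 0 hours, and no library of cells transfected with a control RNA was analysed, so transfection itself and the mimic cannot be told apart. Each group is 1 library, with no replicate, and no test between the groups was possible. Every value below is RPKM (reads normalized to gene length and to the number of mapped reads) from anti-Ago2 precipitates, and the Ago2-IP values were not divided by total RNA. Genes with an RPKM above 0 in both Ago2-IP libraries were compared, 14291 of the 21863 gene symbols in the deposited list. Single genes and gene lists are described for the 10669 with an RPKM of at least 1 in either library. The same series holds 4 further libraries, total RNA of both groups and the *miR-497* pair, and these are given only beside the Ago2-IP values.

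A microRNA guides Argonaute to transcripts that pair with its seed, the bases near its 5′ end, and the bound transcripts are usually translated less and degraded faster. Precipitating Argonaute therefore recovers transcripts while they are held, whereas total RNA shows what remains in the cell. *miR-195* belongs to the miR-15/16 family, which shares a seed and is best known for holding cells in G1 through cyclins and their kinases.

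The mature sequences of both mimicked miRNAs are shown because they carry the same seed, in capitals (bases 2 to 8). They are credited to RefSeq, in a table of the GRCh38.p14 build.
hsa-miR-195-5p: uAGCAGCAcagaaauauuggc
hsa-miR-497-5p: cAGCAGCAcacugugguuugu

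A target site was the sequence TGCTGCT, the 7 bases that pair with this seed, on the sense strand of a transcript, and an 8-base site had an A after it. The sites below are shown because they belong to the genes the results turn on. Positions are on GRCh37, the assembly also called hg19, the site is in capitals, and all of the sites shown read the same in the genome sequence. The first 6 lie in 3′UTRs of cell cycle genes, the next 3 in 3′UTRs of genes that gained in Ago2-IP and were lower in total RNA, and the last 3 in coding sequence of such genes that had no 3′UTR site.
CCND1, chr11:69468083-69468089, plus strand: acattgttTGCTGCTattggagg
CCNE1, chr19:30314931-30314937, plus strand: gctcccgaTGCTGCTatggaagg
CCNE1, chr19:30315169-30315175, plus strand: tttgtaagTGCTGCTatatctat
CCND3, chr6:41903058-41903064, minus strand: gacagcttTGCTGCTgaaggctc
CDC25A, chr3:48199755-48199761, minus strand: actggggcTGCTGCTatttaagc
BTRC, chr10:103313096-103313102, plus strand: tgcttcagTGCTGCTatcagaag
ARL2, chr11:64789591-64789597, plus strand: gctgctacTGCTGCTaccgaggc
PPP1R11, chr6:30037228-30037234, plus strand: ttctgactTGCTGCTattccaga
SPAG7, chr17:4862762-4862768, minus strand: gacaaggcTGCTGCTattagagc
RARS, chr5:167946116-167946122, plus strand: gtggcgtaTGCTGCTatgtgaag
MRPL20, chr1:1337523-1337529, minus strand: gaaggattTGCTGCTgccttggg
ODC1, chr2:10584298-10584304, minus strand: attaagtaTGCTGCTaataatgg

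Most transcripts had a higher RPKM in the *miR-195* library. Over the 14291 genes the median log2 change was 0.48, and 78.2% of them were higher with the mimic. An RPKM at least 2-fold higher, called gained from here on, was found for 3385 genes, or 23.7%, and an RPKM at least 2-fold lower, called lost, for 369, or 2.58%. Relative to the median gene the split was nearly even, with 1375 gained (9.62%) and 1001 lost (7.0%). Among the 10669 genes of at least 1 RPKM, 2339 were gained (21.9%) and 124 lost (1.16%) as deposited, around a median log2 change of 0.50, and 800 (7.5%) and 504 (4.72%) relative to that median. The summed RPKM of all genes was 75019 in the NT library and 116069 in the *miR-195* library. The total RNA of the same genes had a median log2 change of -0.01. The higher level of most genes was thus seen in Ago2-IP and not in total RNA. The Ago2-IP median for *miR-497*, against the same NT library, was -0.25.

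**Figure D1:**
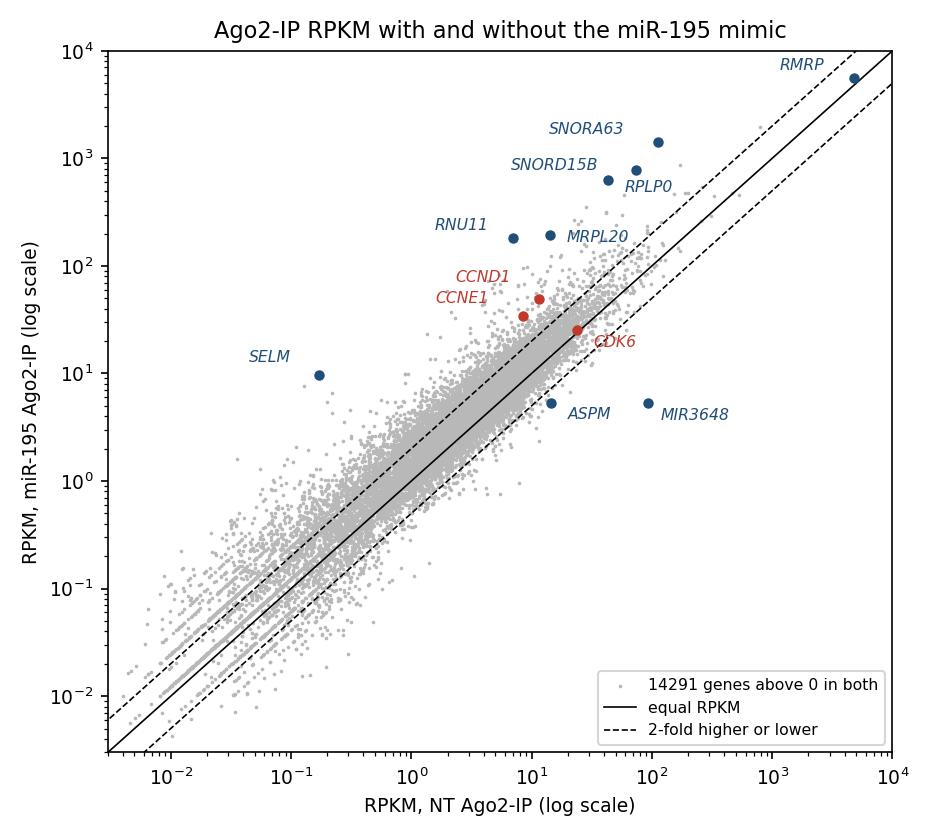
RPKM in the NT Ago2-IP library (x axis, log scale) against RPKM in the *miR-195* Ago2-IP library (y axis, log scale) for the 14291 genes above 0 in both, 1 point per gene. The cloud lies above the line of equal RPKM, *CCND1* and *CCNE1* (red) lie above the 2-fold line, *CDK6* (red) lies on the line of equal RPKM, and *ASPM* and *MIR3648* lie below the lower 2-fold line.

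The only error that can be put on a single fold is counting error. Read numbers were inferred from the steps of the RPKM values for 9115 of the 10669 genes. The 95% interval of the fold then lay wholly above a 2-fold gain for 780 genes and wholly below a 2-fold loss for 11. These intervals contain no variation between cultures, precipitations or libraries.

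*CCND1*, which encodes cyclin D1, the cyclin that starts the G1 to S step, had 11.4 RPKM in NT Ago2-IP and 49.4 RPKM in *miR-195* Ago2-IP. That is 4.32-fold more (95% counting interval 4.0 to 4.67, from 825 and 2883 inferred reads), higher than 97.8% of the 10669 genes. Its total RNA hardly differed, with 43.8 RPKM in NT and 47.0 RPKM with the mimic. *CCNE1*, which encodes cyclin E1, the partner of CDK2 at entry into S phase, went from 8.53 to 34.5 RPKM in Ago2-IP, 4.05-fold (3.54 to 4.64). Unlike *CCND1*, *CCNE1* was lower in total RNA, from 21.0 to 6.76 RPKM. In the *miR-497* Ago2-IP library both stood close to their NT level, *CCND1* at 11.3 RPKM and *CCNE1* at 9.74 RPKM.

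These are among the 8 genes that the study followed as targets, and except for *CCND1* and *E2F3*, included as known targets, it chose them through a score that uses these libraries, so their direction here is not independent evidence. All of them have the site in an annotated 3′UTR. The other 6 changed less in Ago2-IP than the 2 cyclins above. *CCND3*, a D-type cyclin, went from 2.28 to 4.82 RPKM, 2.11-fold (1.63 to 2.76). *CDK4*, the kinase that D-type cyclins activate, went from 18.3 to 35.3 RPKM, 1.93-fold. *CDC25A*, the phosphatase that activates CDK2, went from 8.45 to 14.9 RPKM, 1.76-fold. All 3 lay above the 1.41-fold of the median gene. *E2F3*, a transcription factor of S-phase genes, went from 5.05 to 7.67 RPKM. *BTRC*, which encodes the ubiquitin ligase subunit β-TrCP, went from 3.06 to 4.25 RPKM, and *CDK6*, the other D-cyclin kinase, from 23.7 to 25.2 RPKM. *E2F3* thus lay near the median gene, *BTRC* just under it and *CDK6* well under it, with a log2 change of 0.09 although it has 2 sites. In total RNA 7 of the 8 were lower with the mimic, with log2 changes from -0.45 for *E2F3* to -1.65 for *CCND3*.

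Genes held in larger amount by Ago2 while their total RNA was lower are seen by reading both kinds of library together. A total RNA value at least 2-fold lower with the mimic is called a fall. Of 9727 protein-coding genes with at least 1 RPKM in a library of each kind, 2122 were gained in Ago2-IP (21.8%) and 48 lost (0.493%). In total RNA 99 fell at least 2-fold (1.02%), and 18 of these were also gained in Ago2-IP. Those 18 are a smaller share of the 99 than the 21.8% gained among all 9727 genes. The median log2 change in Ago2-IP was 0.16 for the 99 and 0.51 for all 9727. Relative to the median gene, 10 of the 18 stayed gained. All 18 carry TGCTGCT in a 3′UTR or in the coding sequence. In 11 of them the site is in a 3′UTR and in the other 7 it is in the coding sequence and not in a 3′UTR. Among all 9727 genes, 52.8% have a site in either place, and of the 95 genes gained in Ago2-IP that were at least 2-fold higher in total RNA, 48 do (50.5%). Genes that fell in total RNA had sites more often whether or not they gained, 76 of all 99 (76.8%) and 58 of the 81 that were not gained (71.6%). The set was looked at after its values were seen, and the share is a description of these 4 libraries.

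*ARL2*, a small GTPase of tubulin folding with 4 sites in its 3′UTR, some of which overlap, had the deepest fall of the 18. It went from 1.44 to 9.12 RPKM in Ago2-IP and from 11.8 to 1.57 RPKM in total RNA. No reads were inferred for *ARL2*, so its fold has no counting interval. *PPP1R11*, an inhibitor of protein phosphatase 1 with one 8-base site, went from 3.13 to 15.4 RPKM in Ago2-IP and from 23.0 to 10.3 RPKM in total RNA. *XKR8*, a scramblase of the plasma membrane, has 5 sites in an annotated 3′UTR. In the transcript used for coding sites, however, 4 sites lie in the coding sequence. *XKR8* went from 0.385 to 2.28 RPKM in Ago2-IP, with only 14 inferred reads in NT. These 3 genes and *CCNE1* had the largest Ago2-IP gains among the 11 with a 3′UTR site. *HSPA1B*, a heat shock protein, also belongs to the 11, but it is nearly identical to *HSPA1A* and the reads of the pair cannot be separated.

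The 7 genes with coding sites and no 3′UTR site were *RARS*, *MRPL20*, *ODC1*, *TMUB1*, *ZDHHC12*, *IL11* and *KIF1C*, of which *IL11* also has a site in its 5′UTR. *RARS*, the arginyl-tRNA synthetase, has 4 coding sites and went from 22.2 to 64.8 RPKM in Ago2-IP and from 95.7 to 40.5 RPKM in total RNA. *ODC1*, the first enzyme of polyamine synthesis, has 3 coding sites and went from 90.7 to 201.4 RPKM in Ago2-IP and from 290.2 to 128.8 RPKM in total RNA. *MRPL20*, a protein of the mitochondrial ribosome with 1 coding site, went from 14.2 to 191.8 RPKM in Ago2-IP, 13.5-fold (11.4 to 16.2), and from 69.9 to 33.8 RPKM in total RNA. An annotated repeat-derived short RNA, RN7SL657P, lies within an exon of *MRPL20*, and its part in this value was not tested.

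**Figure D2:**
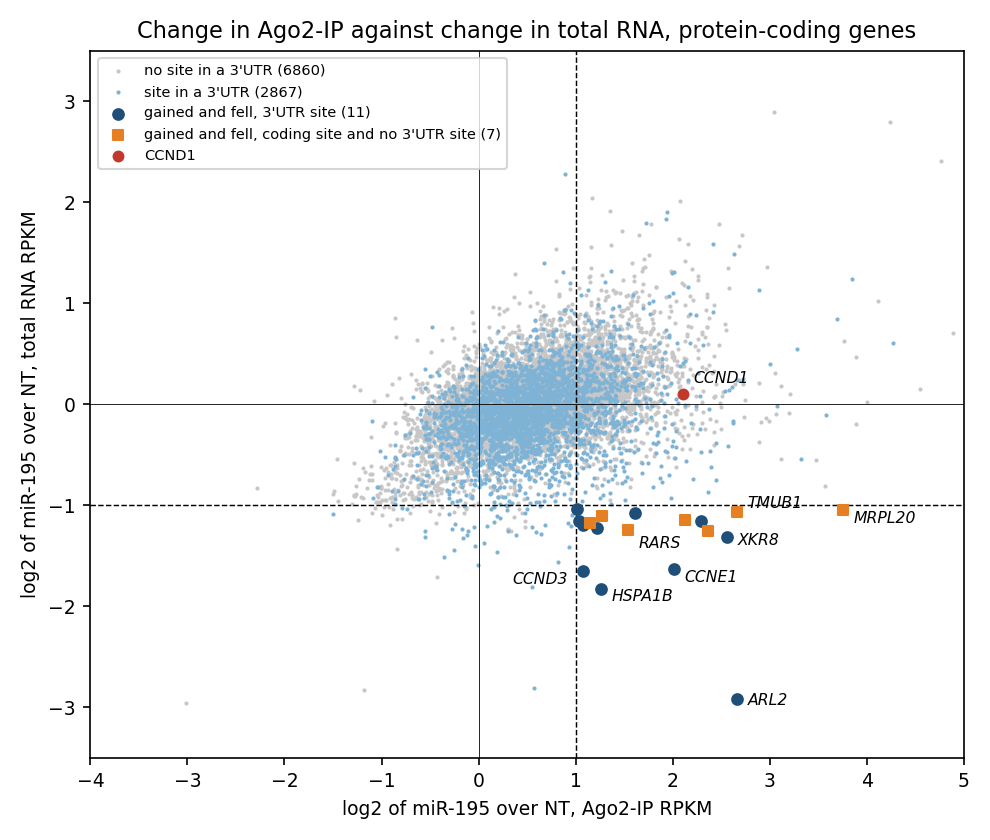
Log2 change of RPKM with the *miR-195* mimic in Ago2-IP (x axis) and in total RNA (y axis) for 9727 protein-coding genes, of which 3 lie outside the axes; blue and grey points have and lack a site in a 3′UTR, and dashed lines mark a 2-fold gain and a 2-fold fall. The lower right corner holds the 18 genes that gained and fell, 11 with a 3′UTR site (dark circles) and 7 with a coding site and no 3′UTR site (orange squares), while *CCND1* (red) gained at an almost level total RNA.

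A lower threshold gave a larger set with more 3′UTR sites and fewer coding sites. At 1.5-fold in each direction 145 genes gained in Ago2-IP and fell in total RNA, and 106 of them (73.1%) had a 3′UTR site, against 29.5% of all 9727. The share among all genes that fell 1.5-fold in total RNA, gained or not, was not computed. At 2-fold a 3′UTR site was present in 61.1% of the 18, in 56.6% of all 99 that fell and in 55.6% of the 81 not gained. A site in either place was present in 127 of the 145 (87.6%), and a coding site in 61 (42.1%), against 15 of the 18 (83.3%). A coding site was present in 34.6% of all 9727 genes and in 40.5% of the 2122 gained, so the 42.1% lies near the share of gained genes. Of the 99 genes that fell 2-fold in total RNA, 56 had a 3′UTR site, and their median log2 change in Ago2-IP was 0.30 (11 gained, 1 lost). The 43 without one had a median of -0.21 (7 gained, 5 lost). Both medians lay below the 0.51 of all 9727 genes. Relative to genes of like G+C content they were -0.09 with a 3′UTR site and -0.60 without. Among the 2122 genes gained in Ago2-IP, the median log2 change in total RNA was 0.07 for the 592 with a 3′UTR site, -0.09 for the 96 with an 8-base site and 0.20 for the 1530 without.

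Across all genes a site in the 3′UTR was not accompanied by a higher Ago2-IP change. For 9910 protein-coding genes of at least 1 RPKM with an annotated 3′UTR, the median log2 change was 0.51 without a site (7008 genes), 0.51 with 1 site (2012 genes), 0.52 with 2 (621 genes), 0.44 with 3 (172 genes) and 0.45 with 4 or more (97 genes). The 590 genes with an 8-base site had a median of 0.45. The gained share was 22.2% without a site and 20.6% with any, and losses were rarer among the carriers, with 0.31% against 0.84%. In total RNA the same classes were ordered by site number, with medians of 0.02, -0.06, -0.12, -0.13 and -0.19. Genes with 3 or more coding sites had a median Ago2-IP change of 0.72, against 0.48 for genes with none, and their transcripts were richer in G+C (54.7% and 46.6%).

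The genes with the most sites differed widely in their change. Sites that overlap, as in repeats, were each counted. *INF2*, an actin regulator, has 33 sites in an annotated 3′UTR and went from 1.73 to 4.12 RPKM, a gain of 2.38-fold that stood 0.21 (log2) above genes of like G+C content. *CASK*, a scaffold kinase, has 17 and went from 1.82 to 3.04 RPKM. *SMAD2*, a mediator of TGF-β signals, has 9 and went from 5.67 to 6.68 RPKM. *RPL14*, a ribosomal protein gene whose reads may be shared with near-identical copies, also has 9 in an annotated 3′UTR. It has 9 in its coding sequence as well, and whether these are the same bases was not tested. Its Ago2-IP value went from 17.9 to 92.2 RPKM, 5.15-fold (4.52 to 5.88). The strongest gains among carriers, ranked by the near bound of the counting interval, were in genes with 1 or 2 sites. Among these, *CTNNBIP1*, an inhibitor of β-catenin, went from 2.78 to 17.1 RPKM, 6.17-fold (5.14 to 7.45). *GABARAPL1*, which acts in autophagy, went from 0.509 to 4.29 RPKM, and *BIK*, which promotes apoptosis, from 0.563 to 5.64 RPKM. The total RNA of these 3 had log2 changes of -0.17, -0.01 and -0.54. Other carriers picked by the same ranking were mostly higher in total RNA. Their log2 changes there were 0.84 for *SLC9A3R2*, 0.60 for *RABAC1*, 0.25 for *C14orf1*, 0.24 for *LY6E* and -0.11 for *RPS14*. Losses among carriers, ranked in the same way, included *PRSS12*, a secreted protease, from 2.12 to 0.819 RPKM, and *HELLS*, a chromatin helicase, from 27.6 to 13.0 RPKM.

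The composition of a transcript went with its Ago2-IP change more closely than the site did. Over the same 9910 genes, Spearman's rho between the log2 change and transcript G+C content was 0.59, and with transcript length it was -0.32. Genes share the 2 libraries and are not independent replicates, so these values are descriptions. In 5 bins of equal gene number, from the lowest to the highest G+C, the median log2 change went from 0.12 through 0.23, 0.46 and 0.73 to 1.05, and the gained share from 4.79% to 54.5%. Losses ran the other way, with 41 in the lowest bin and 1 in the highest. Within each of 5 bins of transcript length the change was larger at each step of G+C, from 0.23 to 1.24 among the shortest transcripts and from 0.05 to 0.89 among the longest. In total RNA the bins of G+C had medians from -0.12 to 0.16, and in the *miR-497* Ago2-IP library, against the same NT, from -0.16 to -0.45. The part of base composition in the changes of single genes was not tested.

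**Figure D3:**
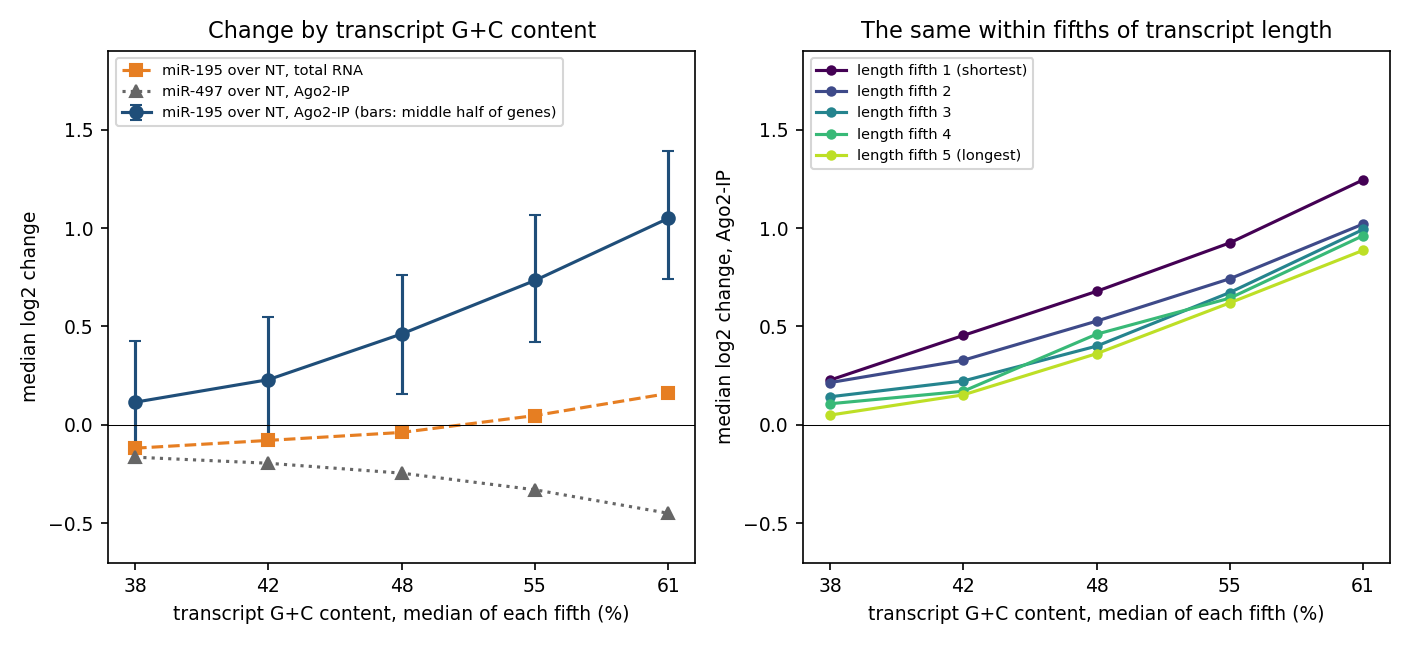
Left, median log2 change for 5 bins of transcript G+C content (x axis, %), for *miR-195* over NT in Ago2-IP (circles, bars span the middle 50% of genes), in total RNA (squares) and for *miR-497* over NT in Ago2-IP (triangles). Right, the Ago2-IP median for *miR-195* in the same bins of G+C, 1 line per bin of transcript length; all 5 lines rise with G+C, and the shortest transcripts lie highest.

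Base composition was therefore held level in a further description, which takes each gene's log2 change relative to the median of genes in the same of 20 bins of G+C content. On that scale *CCND1* stood at 1.54 and *CCNE1* at 1.36, so both kept a gain of more than 2-fold over genes of like composition. *CDK4* stood at 0.28, *E2F3* at 0.16, *CDC25A* at 0.15, *BTRC* at 0.12, *CCND3* at 0.08 and *CDK6* at -0.06. The gains of these 6 were thus close to those of other genes with the same G+C content. Of the 9910 genes 410 stood at least 2-fold above their bin (4.14%) and 228 at least 2-fold below (2.3%). Above it were 9 genes that also fell 2-fold in total RNA, and all 9 had a site in the 3′UTR or coding sequence. Of these, 4 had a 3′UTR site and 8 a coding site. A site in either place was also present in 76.8% of all 99 genes that fell in total RNA.

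The site went with a small difference once genes of like 3′UTR length were compared. In each of 10 bins of 3′UTR length, carriers had the higher median log2 change, by 0.04 to 0.29 and by 0.15 on average. The difference was 0.29 for 3′UTRs of 296 to 519 bases, with 98 carriers, and 0.04 in each of the 2 bins with the longest. After centring on G+C the average was 0.05, with 0.20 and 0.19 in the 2 shortest bins and values below 0 in the 4 longest. Genes with an 8-base site then stood at 0.04, and the 34 with 2 or more such sites at 0.09.

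**Figure D4:**
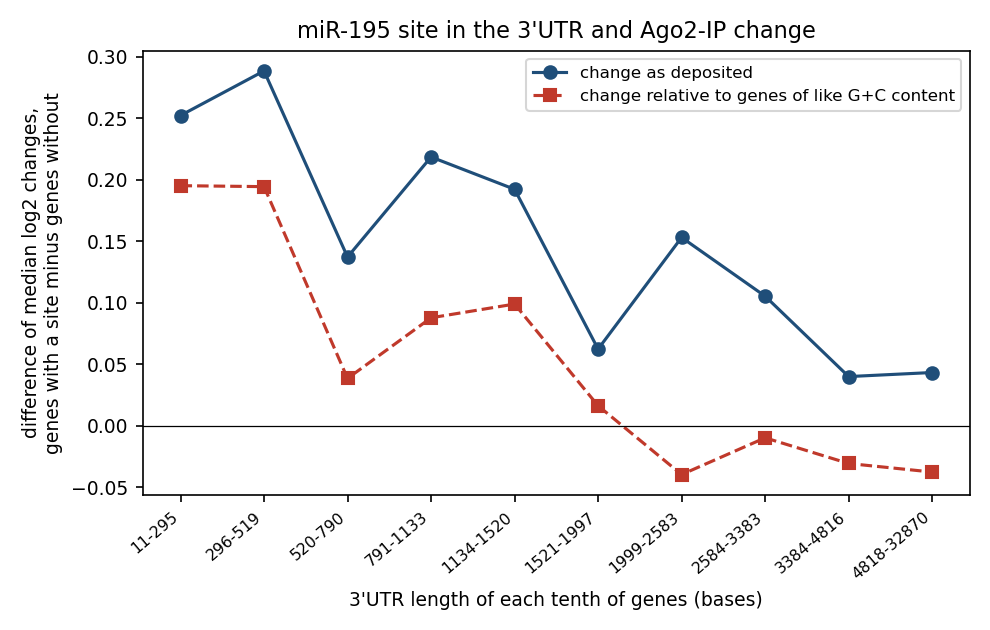
Median log2 change of genes with TGCTGCT in the 3′UTR minus genes without (y axis), in 10 bins of 3′UTR length (x axis, bases), as deposited (circles) and relative to genes of like G+C content (squares). As deposited all 10 differences lie above 0; relative to like G+C, 6 of 10 do, and the highest are those of the shortest 3′UTRs.

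Seed matches of other miRNAs were measured in the same way, to set the *miR-195* word beside words of the same length. Of 18 words, that of miR-24 had the largest difference within bins of 3′UTR length, 0.27, followed by the *miR-195* word at 0.15 and the word of miR-122, the main liver miRNA, at 0.13. The lowest was that of miR-26 at -0.23. The 7 highest words contain 4 or 5 G or C bases and the other 11 contain 2 or 3. Relative to genes of like G+C content, without length bins, all 18 lay between -0.02 and 0.02, and the *miR-195* word was the highest of them. The word searched for miR-103, ATGCTGC, overlaps that of *miR-195*.

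The cell cycle list of G1 to S genes shows that *CCND1* and *CCNE1* were not typical of their pathway. Of 37 measured genes 5 were gained (13.5%) and none lost, with a median log2 change of 0.19, below that of all genes. *CCNE2*, the second E-type cyclin, which has no site in a 3′UTR, went from 2.52 to 1.43 RPKM, and *E2F8*, a repressor of E2F targets, from 2.59 to 1.48 RPKM. A list of 36 genes widely described as targets of the miR-15/16 family had a median of 0.43 over 34 measured members, 9 of them gained (26.5%, against 21.9% of all genes) and none lost. *ARL2* was its highest member, with a log2 change of 2.67, and *KIF23*, a kinesin of cytokinesis with an 8-base site, its lowest, from 5.95 to 4.02 RPKM.

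Genes of mitosis and DNA replication were the protein-coding lists with the lowest Ago2-IP values. None of 49 mitotic genes was gained and 7 were lost (14.3%), with a median log2 change of -0.47. Among all 10669 genes 21.9% were gained and 1.16% lost. Relative to genes of like G+C content 48 of the 49 were below the median of their bin. Of 40 replication genes 1 was gained and 2 were lost, with a median of -0.31. The total RNA of both lists was lower too, with medians of -0.83 and -0.68. *ASPM*, which organizes the spindle poles, went from 14.6 to 5.36 RPKM in Ago2-IP, 2.73-fold lower, and from 16.8 to 8.66 RPKM in total RNA. *SMC4*, a subunit of condensin, went from 18.0 to 7.87 RPKM. Further losses were named by their rank among all genes and not as members of these lists. Of those, *POLQ*, a repair polymerase, went from 9.91 to 4.01 RPKM. *SASS6*, which builds centrioles, went from 4.96 to 1.75 RPKM, and *BRCA2*, which acts in homologous recombination, from 7.36 to 3.33 RPKM. None of these 5 has the site in a 3′UTR, though *ASPM* has 2 in its coding sequence. A 3′UTR site is also lacking in 70.7% of the 9910 protein-coding genes, while 8 of the 49 mitotic genes have one. In bulk RNA, fewer cells in mitosis and less of these mRNAs per cell cannot be told apart.

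Short transcripts of energy metabolism, ribosomes and metal binding were on the high side. Of 77 respiratory chain genes 40 were gained (51.9%) and none lost, with a median log2 change of 1.03, and relative to like G+C content 67 of the 77 lay above their bin. That comparison does not hold length level, and the median transcript of this list has 894 bases. Over the 9910 protein-coding genes, length had a rho of -0.18 with the change relative to like G+C content. *COX5B*, a subunit of cytochrome oxidase, went from 14.6 to 122.5 RPKM, 8.39-fold (6.94 to 10.2). Of 78 cytosolic ribosomal protein genes 33 were gained and 2 lost, with a median of 0.92. *RPLP0* went from 42.8 to 633.5 RPKM and *RPS14* from 22.5 to 269.2 RPKM, whereas *RPL21* went from 11.5 to 2.37 RPKM on 6 and 1 inferred reads, with a counting interval of the fold, 0.0045 to 1.7, that includes no change. Ribosomal protein genes have many near-identical pseudogenes, so their values depend on how shared reads were assigned. Of 75 mitochondrial ribosomal protein genes 21 were gained (28.0%), and of 36 proteasome genes 8 (22.2%), shares near the 21.9% of all genes, with a median of 0.74 for each list. All 6 metallothionein genes of at least 1 RPKM were gained, with *MT2A* going from 36.6 to 166.9 RPKM, though this family too shares sequence. Of 34 histone genes 20 were gained and none lost, with a median of 1.08, led by *HIST1H1C*, a linker histone, from 25.7 to 138.8 RPKM.

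Among lists that describe the liver cell, sterol and lipid synthesis had the highest median, 1.10. The counts here stand beside 21.9% gained and only 1.16% lost among all 10669 genes. Of its 35 genes 20 were gained (57.1%) and none lost, 34 lay above the median gene and 32 above genes of like G+C content. *CYP51A1*, a demethylase of cholesterol synthesis, went from 4.72 to 22.5 RPKM in Ago2-IP and from 36.7 to 50.3 RPKM in total RNA, where the list had a median of 0.45. Of 31 secreted liver proteins 13 were gained and none lost, with a median of 0.85. *SERPINA1*, the protease inhibitor α1-antitrypsin, went from 32.1 to 134.5 RPKM, and *C5*, a complement protein, from 11.5 to 9.50 RPKM. Of 21 hepatocyte transcription factor genes 10 were gained, but with a G+C content of 58.4% their median relative to like genes was 0.05. Of 18 immediate-early genes 12 were gained and none lost, with a median of 1.33 and of 0.59 relative to like G+C content. *GADD45B*, a stress response gene, went from 0.432 to 2.35 RPKM and *IER2*, an early transcription factor, from 1.19 to 4.49 RPKM.

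Genes that answer double-stranded RNA were looked at because a dsRNA was transfected, and a response to it was not tested. Of 17 measured interferon-response genes 6 were gained (35.3%, against 21.9% of all genes) and none lost. Their median was 0.70 in Ago2-IP and 0.06 relative to like G+C content. In total RNA the list had a median log2 change of 0.32, against -0.01 for all genes. *IFITM2*, a membrane protein against viruses, went from 1.22 to 7.14 RPKM in Ago2-IP, with a log2 change of 0.74 in total RNA. *EIF2AK2*, the kinase that senses double-stranded RNA, went from 6.27 to 5.89 RPKM in Ago2-IP, with -0.27 in total RNA. In the unfolded protein response list 3 of 25 genes were gained. The 20 genes of Argonaute and miRNA processing had a median of 0.28, with 2 gained (10.0%). *EIF2C2*, the gene of Ago2 itself, went from 28.1 to 34.2 RPKM. *TARBP2*, a partner of Dicer, went from 2.87 to 10.6 RPKM and was the highest of them. Of 38 genes of mRNA decay 3 were gained (7.9%), of 52 translation initiation factor genes 5 (9.6%) and of 54 chaperone genes 10 (18.5%). None was lost in any of them, and among all genes only 1.16% were lost. Of 306 zinc finger (ZNF) genes 29 were gained (9.5%) and 2 lost, with a median of 0.08, and relative to like G+C content 226 of 298 lay below their bin. Of 175 solute carrier (SLC) genes 54 were gained and 1 lost, with a median of 0.73, and of 20 housekeeping genes 5 were gained.

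**Figure D5:**
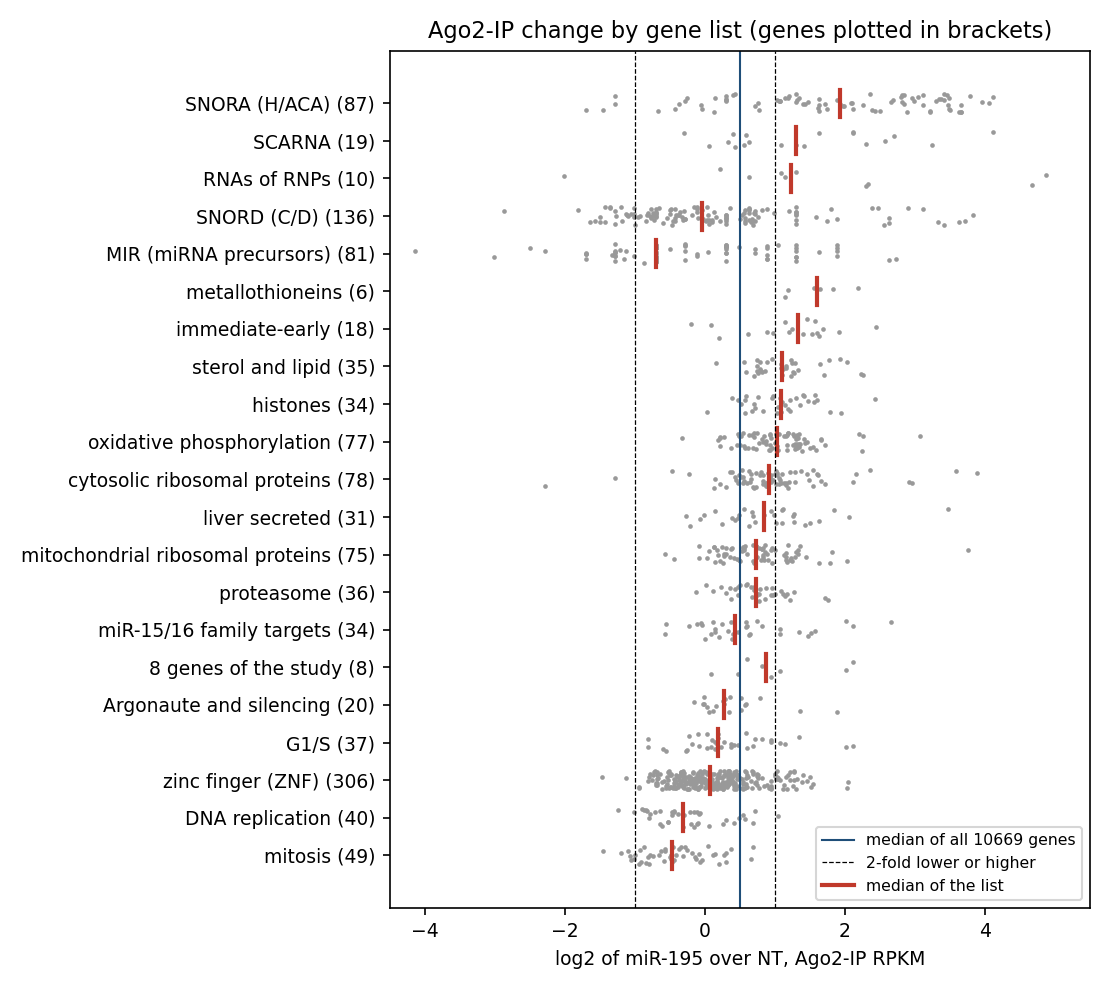
Log2 change in Ago2-IP (x axis) for the genes of 21 lists, 1 grey point per gene with an RPKM of at least 1 in either library, red bars at each list's median, a blue line at the median of all 10669 genes and dashed lines at 2-fold lower and higher. H/ACA small nucleolar RNAs lie highest and mitotic and replication genes lowest among lists of protein-coding genes, while C/D small nucleolar RNAs spread to both sides.

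Noncoding RNAs had the widest changes. H/ACA small nucleolar RNAs (SNORA), which guide pseudouridylation, had a median log2 change of 1.93 over 87 members, with 65 gained (74.7%) and 4 lost. C/D small nucleolar RNAs (SNORD), which guide ribose methylation, had a median of -0.03 over 136 members, with 24 gained (17.6%) and 22 lost (16.2%). Among all 10669 genes 21.9% were gained and 1.16% lost. Of 19 small Cajal body RNAs (SCARNA) 11 were gained and none lost. Of 81 genes named for a microRNA 14 were gained and 20 lost, with a median of -0.69, and 65 of the 70 with inferred reads had fewer than 10 reads in one of the libraries. *MIR195* and *MIR497* themselves were at 0 in both Ago2-IP libraries. Such values count reads on the hairpin gene, and mature miRNAs were not measured here.

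The change of these RNAs differed between classes of length, which largely follow the split into SNORA and SNORD. Spearman's rho with length was 0.49 over 294 short RNAs, 0.39 within 117 SNORD and 0.05 within 83 SNORA. With G+C content rho was 0.22, 0.42 and 0.26 in the same sets, so within each family it was higher for G+C than for length. The 107 short RNAs of 75 to 99 bases had a median log2 change of -0.28, and the 80 of 125 to 149 bases a median of 2.31, with 61 gained. Those of 40 to 74 bases (54) had -0.22, those of 100 to 124 bases (26) had 0.31 and those of 150 to 449 bases (27) had 1.21. G+C content had medians from 40.3% to 49.3% in these 5 classes. In the *miR-497* library, against the same NT, the class of 125 to 149 bases had a median of 1.39 and that of 75 to 99 bases -0.04. The parts of RNA length and G+C content in these changes were not tested.

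*SNORA63* went from 111.8 to 1411 RPKM, 12.6-fold (11.1 to 14.4), and *SNORD15B*, which has 146 bases, from 73.3 to 781.7 RPKM. *RNU11* and *RNU12*, the U11 and U12 RNAs of the minor spliceosome, went from 7.04 to 180.1 RPKM and from 1.99 to 58.7 RPKM, and both were at 0 in total RNA of both groups. *RPPH1*, the RNA of RNase P, went from 170.9 to 863.2 RPKM. *RMRP*, the RNA of RNase MRP, had the highest RPKM of both libraries, 4826 in NT and 5600 with the mimic, and with a log2 change of 0.21 it did not share these gains. Apart from it, *SNORD17*, *MALAT1*, *FN1* and *AFP* led the NT library, and *SNORA63*, *SNORD17*, *RPPH1* and *SNORD15B* led the *miR-195* library. The deepest loss with more than 100 reads in NT was that of *MIR3648*, from 93.4 to 5.30 RPKM (283 and 13 inferred reads). *MIR17HG*, the host transcript of the miR-17-92 cluster, went from 4.73 to 1.89 RPKM in Ago2-IP, with a log2 change of -0.89 in total RNA.

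Some of the largest ratios came from genes near 0 in NT. *SELM*, a selenoprotein, went from 0.172 to 9.78 RPKM, with 2 inferred reads in NT. *TUBA1A*, an α-tubulin with close paralogs, went from 0.0357 to 1.59 RPKM. Of the better counted mRNAs, *IFI30*, a lysosomal reductase, went from 4.09 to 48.4 RPKM, 11.8-fold (9.26 to 15.3), with a log2 change of -0.81 in total RNA. *SDPR*, a protein of caveolae, was higher in both kinds of library, from 0.110 to 2.08 RPKM in Ago2-IP and from 0.647 to 4.48 RPKM in total RNA. A further 1021 genes had reads in the *miR-195* library alone and 680 in the NT library alone, of which 46 and 33 reached 1 RPKM, while 5871 were at 0 in both. The highest of these were *SNORA37*, at 10.8 RPKM with the mimic, and *MIR1307*, at 8.49 RPKM in NT.

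Markers of liver cells were present. *AFP* stood at 330.8 and 446.4 RPKM and *ALB* at 5.47 and 15.5 RPKM in NT and *miR-195* Ago2-IP, while *TTR*, also made by hepatocytes, had 0.0640 and 0.237 RPKM. Of 12 blood cell markers only *LYZ* reached 1 RPKM, at 31.0 and 65.2 RPKM, out of list totals of 31.3 and 65.9, and *PTPRC*, *CD3E* and *HBB* were at 0 in both libraries. Of 12 markers of fibroblasts and endothelium only *ACTA2* did, at 1.60 and 3.93 RPKM, with list totals of 2.23 and 4.87, and *COL1A2* and *DCN* were at 0. From the inferred reads, about 1.69e+07 reads were mapped in NT and 1.37e+07 in *miR-195* Ago2-IP, and the share on genes with inferred reads was 18.6% and 24.9%.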

How the data were processed

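Hep G2 RNA was sequenced in 6 libraries, 1 per condition and fraction. The authors mapped 36-base reads to hg19 with ELANDv2 and deposited RPKM values computed with CASAVA 1.7, 1 per gene and library, without counts, and the sources do not say which libraries had poly-A selection. Values of the 28 repeated symbols were averaged, and 0 value columns were left unused. The change was log2 of *miR-195* over NT Ago2-IP RPKM with no pseudocount. Reads were inferred as the smallest whole numbers in the ratio of a gene's RPKM over the 6 libraries divided by what 1 read is worth in each library, and dropped where the implied length exceeded 1.5 times the longest annotated transcript (551 genes). Intervals are exact binomial (Clopper-Pearson) at 95%. Sites, lengths and G+C content came from GENCODE release 44 on GRCh37, where 18208 symbols matched directly, 2269 through older names and 1386 not at all; a site was counted in any annotated 3′UTR, or in the coding sequence of 1 transcript per gene. The number of 3′UTR sites of a gene was the highest in any of its annotated 3′UTRs, with overlapping sites each counted. Procedures were tested on simulated data. Named genes followed fixed ranks (the study's 8 genes, near bounds of the interval, ratios, site carriers, 2 highest and lowest per list, highest RPKM); the 18 genes with opposite changes, *ALB*, *TTR*, *MIR195* and *MIR497* were named after their values were seen. Some genes and sequences that these ranks select are not reported here. The members and lists were chosen with earlier results of these data known. Python 3.11.15, pandas 2.3.3, numpy 2.4.6, scipy 1.17.1 and matplotlib 3.10.9 were used.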

Additional observations from a re-analysis of the deposited data

Results flagged for a closer look

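The Ago2-IP and total RNA libraries moved in opposite directions, each by at least 2-fold, for 18 genes, and with 1 library per group this difference between the fractions was not tested. The log2 changes in Ago2-IP were 3.76 for *MRPL20*, 2.67 for *TMUB1* and for *ARL2*, 2.56 for *XKR8*, 2.36 for *ZDHHC12*, 2.30 for *PPP1R11*, 2.13 for *IL11*, 2.02 for *CCNE1* and 1.61 for *SPAG7*. They were 1.54 for *RARS*, 1.27 for *KIF1C* and for *HSPA1B*, 1.22 for *ZNF622*, 1.15 for *ODC1*, 1.08 for *CCND3*, 1.07 for *VTI1B*, 1.03 for *IPPK* and 1.02 for *SMPD1*. In total RNA the same genes ranged from -2.91 for *ARL2* to -1.04 for *SMPD1*. The 7 genes with coding sites and no 3′UTR site include the largest Ago2-IP gain of the set, that of *MRPL20*.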

How the results depend on the processing

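No paired analysis was possible because each group is 1 library. As deposited, 3385 genes were gained and 369 lost. A pseudocount of 0.1 RPKM gave 158 lost, and a pseudocount of 1 gave 1131 gained and 39 lost, with medians of 0.42 and 0.25. A mean RPKM of at least 1 gave 2128 and 109, and an RPKM of at least 1 in either library 124 lost and a median of 0.50. Division by each library's median gave 1285 and 1106 with a median of -0.0464, *CCND1* at 1.59 and *CCNE1* at 1.5. Division by the upper quartile gave 1460 and 929 with a median of 0.0331, *CCND1* at 1.67 and *CCNE1* at 1.58. Thresholds of 1.5 and 4 gave 6260 and 893, and 550 and 58. Counting intervals wholly past 2-fold gave 809 and 13. The comparison with like G+C content, added once the data had been seen, gave 410 and 228, with *CCND1* at 1.54 and *CCNE1* at 1.36. The median of site carriers minus other genes was 0.0043, and became -0.0485 with 8-base sites, 0.0578 with 6-base sites and 0.15 within bins of 3′UTR length. The other 27 of 59 values stayed within their counting interval, binomial interval of the median or 1.5 times the count. Both cyclins were gained at least 2-fold under every alternative run. The count of lost genes depends on few reads at low RPKM, and the causes of the other shifts were not tested.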
